A study of Homo sapiens with 6 samples.

Results

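Prostaglandins are lipid signals made from arachidonic acid, and the 10 human genes described here encode the main steps of making, sensing and removing them. They are PTGS1, PTGS2, PTGES, PTGES2, PTGES3, PTGIS, PTGER2, PTGER3, PTGER4 and HPGD. Members were taken by name: every probe set whose platform annotation gave exactly 1 of these symbols was used, 38 of 44988 single-symbol probe sets, and probe sets were averaged per gene, giving 10 of 18132 genes. The family was proposed when the knockdown and control difference on these same arrays was already known, the lower PTGS2 included, so the members' differences are a description and no test is drawn from them. Expression was measured on 6 arrays of U87 cells, an established human glioma line grown in DMEM with fetal bovine serum. Knockdown cells (3 arrays, with T0 in their names) had received lentivirus encoding a hairpin that targets PCGF1, a subunit of a Polycomb repressive complex. Control cells (3 arrays, with T1) had received the NC lentivirus, the negative control. What T0 and T1 mean is not explained and cannot be told apart from the knockdown. Neither the hairpin's sequence nor the number of hairpins or cell clones is given in the sources used here.

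Cyclooxygenases turn arachidonic acid, freed from membranes by phospholipases, into a short-lived prostaglandin precursor. PTGS1 is the constitutive form and PTGS2 the form induced by cytokines and growth factors, and terminal synthases then make prostaglandin E2 or prostacyclin. Prostaglandin E2 acts through G protein-coupled EP receptors until it is taken up and oxidised by HPGD, and gliomas are among the tumours known to make it.

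Each value is a log2 signal set against the median of its 6 arrays. Such values compare arrays and give no expression level, so neither the presence of a receptor nor the glial identity of the cells could be checked from levels. PCGF1, the targeted gene, was lower after knockdown, at -0.27, -0.13 and -0.19 in the knockdown arrays, against 0.13, 0.27 and 0.29 in the control arrays. The groups did not overlap, and the difference was -0.43 ± 0.06 (SE; limma adjusted p = 0.00410; exact permutation p = 0.1, two-sided, the smallest that 3 against 3 arrays can give). Across all genes, 11.0% passed the fit (limma, adjusted p under 0.05), 4.63% lower and 6.36% higher in knockdown arrays.

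PTGS2 was the member that differed most, with the knockdown level at 64.2% of the control level (95% interval 58.9 to 69.9%). PTGES3, a co-chaperone with prostaglandin E synthase activity, was also below its control values, by a smaller amount. PTGES, the inducible prostaglandin E synthase, lay above its control values in every array, and the remaining 7 members had group differences between -0.06 and 0.13. By the fit over all genes, 2 of 10 members passed as lower, PTGS2 and PTGES3, and 0 as higher (background 4.63% and 6.36%). At an unadjusted p under 0.05 the counts were 2 lower and 1 higher. Nothing is read from these counts, because the members were chosen with the same comparison in view. The median difference over the members was -0.05, against -0.0081 over all genes, and the median size regardless of sign was 0.07 for both.

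**Figure D1:**
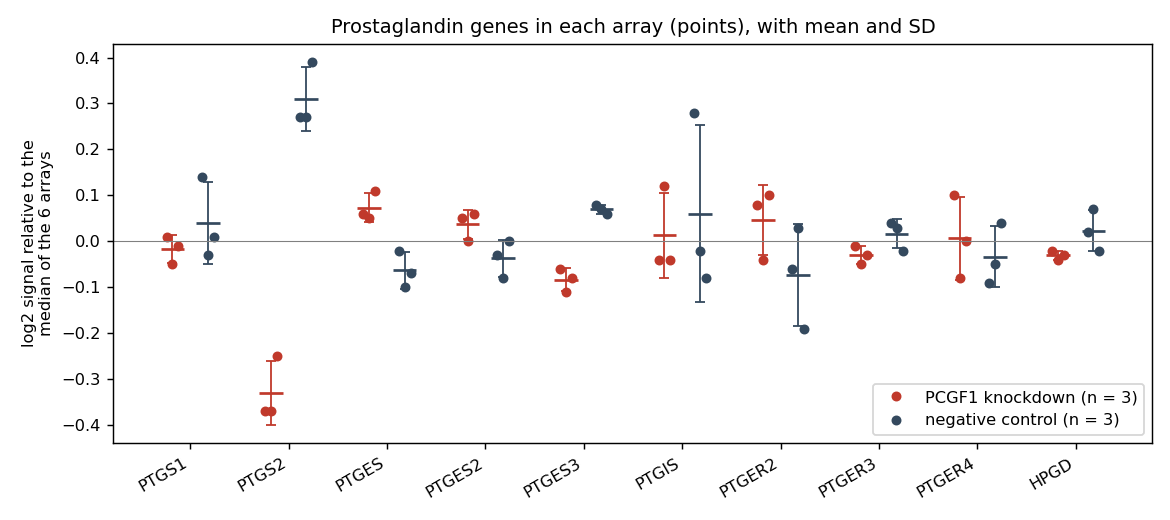
Log2 signal of each member on each array, with the 6-array median at 0 (y axis), for PCGF1 knockdown (red) and negative control (grey-blue), with means and SD of 3 arrays. PTGS2 has the widest gap, with knockdown arrays between -0.37 and -0.25 and control arrays between 0.27 and 0.39.

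The promoters of PTGS2, PTGES3 and PTGES are shown because these were the members with the largest group differences relative to their spread. Sequences are from RefSeq on GRCh38.p14, which held 12 promoters for 8 of the 10 members. Each runs from 250 bases before to 50 bases after the start of the gene on the gene's own strand. Capitals mark matches, on either strand, to 6 motifs. The kB-like motif is GGG and CC with any 5 bases between them, and the C/EBP motif is spelled TTNNGNAA. The core of the cyclic AMP response element is TGACG. An AP-1 site was searched as TGANTCA. For the TATA box the letters were TATAAA, and for the GC box they were GGGCGG. Overlapping matches form 1 capital stretch. The PTGS2 promoter lies at chr1:186680374-186680673 on the minus strand, that of PTGES3 at chr12:56688235-56688534 on the minus strand and that of PTGES at chr9:129752993-129753292 on the minus strand.
PTGS2: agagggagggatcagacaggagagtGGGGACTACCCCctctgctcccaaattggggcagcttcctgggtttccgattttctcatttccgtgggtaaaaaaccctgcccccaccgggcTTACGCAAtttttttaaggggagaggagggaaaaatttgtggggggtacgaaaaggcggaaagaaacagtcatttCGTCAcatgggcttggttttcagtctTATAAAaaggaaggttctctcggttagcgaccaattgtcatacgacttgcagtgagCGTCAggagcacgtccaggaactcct
PTGES3: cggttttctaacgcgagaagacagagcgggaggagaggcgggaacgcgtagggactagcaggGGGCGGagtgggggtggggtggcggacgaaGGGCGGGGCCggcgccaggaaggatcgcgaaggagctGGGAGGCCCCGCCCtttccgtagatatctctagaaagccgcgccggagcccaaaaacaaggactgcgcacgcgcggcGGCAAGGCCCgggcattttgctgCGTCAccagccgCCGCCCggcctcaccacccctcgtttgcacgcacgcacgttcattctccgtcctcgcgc
PTGES: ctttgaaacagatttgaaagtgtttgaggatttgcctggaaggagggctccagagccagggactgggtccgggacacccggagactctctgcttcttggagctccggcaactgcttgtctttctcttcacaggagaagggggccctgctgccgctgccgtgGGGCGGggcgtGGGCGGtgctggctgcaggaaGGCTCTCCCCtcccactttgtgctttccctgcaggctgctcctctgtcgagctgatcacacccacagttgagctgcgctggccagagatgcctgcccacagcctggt
In PTGS2 the capitals are, from the left, 1 kB-like stretch at -225 to -214 from the gene's start, a C/EBP match at -133 to -126, a cyclic AMP response core at -58 to -54, a TATA box at -32 to -27 and another such core at 25 to 29, after the start. Such matches range from common to less frequent over the 35116 RefSeq promoters of this length. The kB-like motif is held by 58.7% of them, the GC box by 45.0% and the C/EBP motif by 36.8%. The cyclic AMP response core is held by 24.6%, the TATA box by 11.5% and the AP-1 motif by 7.71%. The PTGES3 promoter held 3 kB-like stretches, 4 GC boxes and 1 cyclic AMP response core, with no TATA box letters. The PTGES promoter held 1 kB-like stretch and 2 GC boxes, also with no TATA box letters. The AP-1 motif was absent from the PTGS2, PTGES3 and PTGES promoters, and the PTGS2 promoter held no GC box. In base composition the PTGS2 promoter had 12 CpG dinucleotides and 50.7% G or C, the PTGES promoter 10 and 61.7%, and the PTGES3 promoter 37 and 68.0%, beside medians of 14 and 58.7% over all promoters. A match is a description of these letters and shows no binding.

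Of the cyclooxygenases, PTGS2 separated the groups and PTGS1 did not. PTGS2 was at -0.37, -0.37 and -0.25 in knockdown arrays 1 to 3, against 0.27, 0.27 and 0.39 in control arrays 1 to 3. Every knockdown array was below every control array by more than the spread within either group. The means were -0.33 ± 0.07 in knockdown and 0.31 ± 0.07 in control arrays (SD, n = 3 each), a difference of -0.64 ± 0.05 (SE), or 1.56-fold lower. As RNA was pooled from all cells of a culture, fewer cells with the transcript and less of it per cell cannot be told apart. By signed difference it was number 27 from the lowest of the 18132 genes. Its 3 probe sets had the same direction and different sizes. The probe set at the largest difference, -0.94 (95% interval -1.11 to -0.77), gave 52.3% of the control level, and the other two, at -0.55 and -0.44, gave 68.4% and 73.8%. On that first probe set the knockdown arrays were at -0.43, -0.62 and -0.38, against 0.38, 0.50 and 0.49 in the control arrays. All 3 passed the fit over all 49293 probe sets, of which 7.24% passed and 2.94% passed as lower. The averaged value is therefore smaller than that of the most responsive probe set, and since levels are not known, which of the 3 is nearest the transcript's true change was not tested.

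PTGS1 was at 0.01, -0.05 and -0.01 in knockdown arrays, against 0.14, -0.03 and 0.01 in control arrays. The groups overlapped, and control replicate 1 stood above the other 5 arrays. Its difference was -0.06 (95% interval -0.18 to 0.06), with 3 probe sets below 0 and 1 above, from -0.18 to 0.15. The probe sets of PTGS1 thus disagreed in sign.

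**Figure D2:**
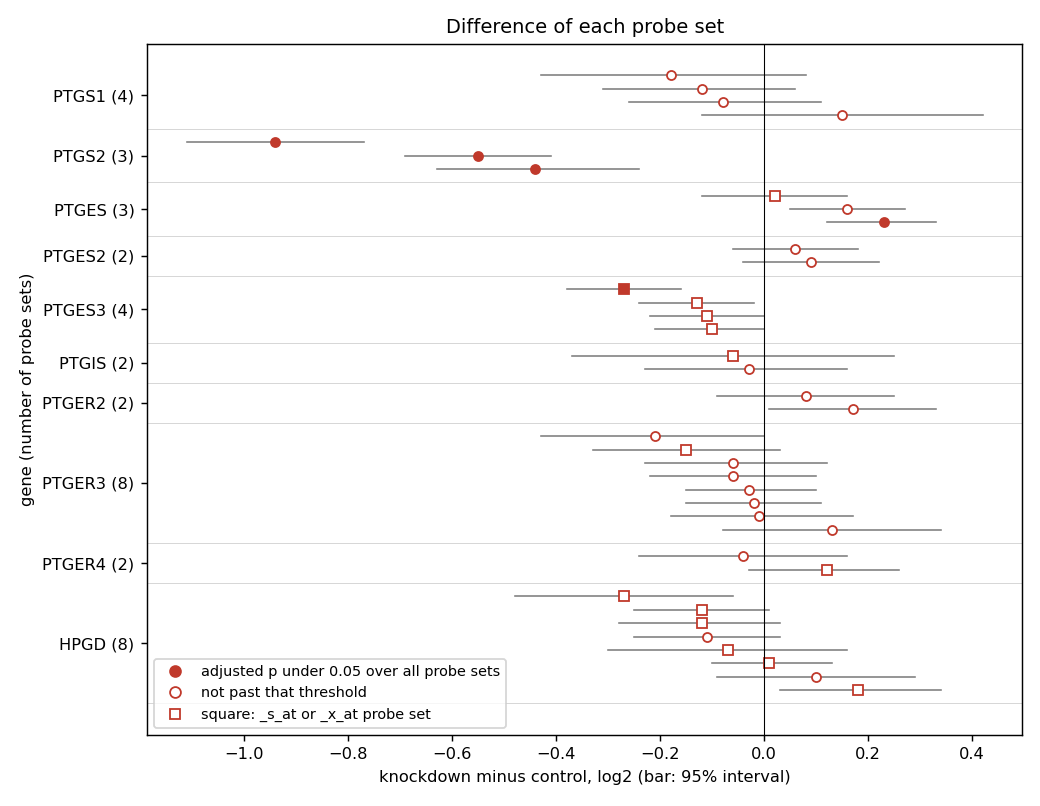
Knockdown minus control difference (x axis, log2) with its 95% interval for each of the 38 probe sets, grouped by gene (y axis). The 3 probe sets of PTGS2 lie between -0.94 and -0.44, apart from those of every other member, whose values run from -0.27 to 0.23.

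The 3 prostaglandin E synthases did not share a direction. PTGES is the microsomal enzyme that is induced together with PTGS2 in many inflamed tissues. It was at 0.06, 0.05 and 0.11 in knockdown arrays, against -0.02, -0.10 and -0.07 in control arrays. The groups did not overlap, and the knockdown arrays were the higher ones, the opposite of PTGS2. The difference of 0.13 (95% interval 0.04 to 0.23) did not pass the fit over all genes. Its probe sets were at 0.23, 0.16 and 0.02, and the first of them passed the fit over all probe sets (4.30% of which passed as higher). The lowest belongs to the _x_at class, which Affymetrix uses for probes that can also bind other transcripts. Without that class and the _s_at class, which marks probes shared by several transcripts, the value of PTGES was 0.19 and passed.

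PTGES3, also known as the HSP90 co-chaperone p23, was at -0.06, -0.11 and -0.08 in knockdown arrays, against 0.08, 0.07 and 0.06 in control arrays. The groups did not overlap and the spread within each was small. The difference was -0.15 ± 0.04 (SE), or 89.9% of the control level, and all 4 probe sets were lower, from -0.27 to -0.10. It no longer passed after removal of any single array, although the difference stayed between -0.17 and -0.14. All 4 probe sets are of the _s_at or _x_at class, and the RefSeq table lists 5 PTGES3 pseudogenes, PTGES3P1 to PTGES3P5, so signal from related sequences could not be separated from that of PTGES3.

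PTGES2, a membrane-associated prostaglandin E synthase, was at 0.05, 0.00 and 0.06 in knockdown arrays, against -0.03, -0.08 and 0.00 in control arrays. The groups met at 0.00 within rounding, and the difference was 0.07 (95% interval -0.02 to 0.17). PTGIS, the prostacyclin synthase, was at -0.04, 0.12 and -0.04 in knockdown arrays, against 0.28, -0.02 and -0.08 in control arrays. Control replicate 1 again stood highest, and the groups overlapped. The difference of -0.05 had the widest interval of the members, -0.26 to 0.17, and it was 0.06 when control replicate 1 was left out.

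Among the 10 members, 4 had groups that did not overlap, PTGS2, PTGES, PTGES3 and, by less than the rounding, PTGES2, a share near the 32.7% of all genes with such groups. Of the 38 member probe sets 14 did not overlap, beside 29.5% of all probe sets. By probe set 25 differences were below 0 and 13 above. PTGER3 and HPGD, with 8 probe sets each, gave 7 and 5 of those below 0. Probe sets of the same gene are not independent, and the split over all probe sets was not taken, so nothing is read from these counts.

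The EP receptors had small differences with overlapping groups. PTGER2 encodes EP2, which raises cyclic AMP. It was at 0.08, -0.04 and 0.10 in knockdown arrays, against -0.06, 0.03 and -0.19 in control arrays. The lowest array was control replicate 3, and without it the difference of 0.13 (95% interval -0.02 to 0.27) was 0.07. Both probe sets of PTGER2 were above 0, at 0.17 and 0.08.

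PTGER4 encodes EP4, which also raises cyclic AMP. It was at 0.10, -0.08 and 0.00 in knockdown arrays, against -0.09, -0.05 and 0.04 in control arrays. No ordering of the groups was visible, and the 2 probe sets had opposite signs, -0.04 and 0.12. The difference was 0.04 (95% interval -0.10 to 0.17).

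PTGER3 encodes EP3, which lowers cyclic AMP and is spliced into several forms. It was at -0.01, -0.05 and -0.03 in knockdown arrays, against 0.04, 0.03 and -0.02 in control arrays. The ranges overlapped, and the difference was -0.05 (95% interval -0.14 to 0.04). Of its 8 probe sets 7 were below 0 and 1 above, from -0.21 to 0.13, and 0 of them passed the fit over all probe sets.

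HPGD, the dehydrogenase that inactivates prostaglandin E2, was at -0.02, -0.04 and -0.03 in knockdown arrays, against 0.02, 0.07 and -0.02 in control arrays. The knockdown arrays were close together and overlapped with control replicate 3. The difference was -0.05 (95% interval -0.14 to 0.04). Behind that average stood 8 probe sets that ran from -0.27 to 0.18, with 5 below 0 and 3 above. For the 8 members that did not pass, the intervals of the averaged values still include differences of up to -0.26 or 0.27, so they do not show that there was no change. Single probe sets reached further. In HPGD the interval of the lowest was -0.48 to -0.06 and that of the highest 0.03 to 0.34.

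Other genes of the pathway were taken from 7 lists of non-members, 90 measured genes in all. Of these 4 passed as higher and 6 as lower, 11.1% together, close to the 11.0% of all genes.

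Among 22 genes for inputs, transcription factors and RNA-binding proteins that act on PTGS2, 5 fell, 1 rose and 16 did not pass (limma, adjusted over all genes, of which 4.63% passed as lower and 6.36% as higher). At an unadjusted p under 0.05, 1 was higher and 7 were lower, and the list median was -0.03. The falls of IL1B and IL1A were known when this list was drawn up, so its count is partly built in. IL1B, the cytokine interleukin-1 beta and a classic inducer of PTGS2, was at -0.75, -0.71 and -0.80 in knockdown arrays, against 0.73, 0.71 and 0.72 in control arrays. The log2 fall of IL1B, 1.48 (limma adjusted p = 2.49e-06, SE 0.04), rests on 1 probe set. PTGS2 was at -0.64 as an average of 3 probe sets, and at -0.94 on the lowest of them. IL1A, which acts on the same receptor, fell by 0.45 (SE 0.06, adjusted p = 0.00303), also on 1 probe set. JUN, a subunit of the transcription factor AP-1, fell by 0.26 (SE 0.04, adjusted p = 0.0102), with all 4 probe sets lower, from -0.32 to -0.18. With _s_at and _x_at probe sets removed, JUN was at -0.24, a similar size, and did not pass (adjusted p = 0.0867).

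The transcription factor genes CEBPB and NFKB1 complete the 5 that fell, and were named after their values were seen. Their family partners in the list, also named afterwards, did not pass, CEBPD being at -0.06 and RELA at -0.02. FOS, of the same list and likewise named afterwards, was at -0.15 and did not pass either (limma adjusted p = 0.172). CEBPB was at -0.08, -0.20 and -0.11 in knockdown arrays, against 0.14, 0.08 and 0.09 in control arrays (difference -0.23, adjusted p = 0.0157). NFKB1, at -0.09, -0.10 and -0.11 in knockdown arrays, was against 0.09, 0.12 and 0.16 in control arrays (difference -0.22, adjusted p = 0.0108). Each rests on 1 probe set, and the groups did not overlap for either gene. NFKB1 did not pass in the fit on the most variable probe sets (adjusted p = 0.0542). CEBPB did not pass when control array 1 or 3 was removed (adjusted p = 0.0545 and 0.0501) or in the fit on the most variable probe sets (adjusted p = 0.0576), at differences of -0.24 to -0.21, and it has no value without _s_at and _x_at probe sets. TNFRSF1A, a receptor for tumour necrosis factor, rose by 0.24 (SE 0.04, adjusted p = 0.0115), with probe sets between 0.02 and 0.37. Once _s_at and _x_at probe sets were removed it was at 0.02 and did not pass (adjusted p = 0.891).

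**Figure D3:**
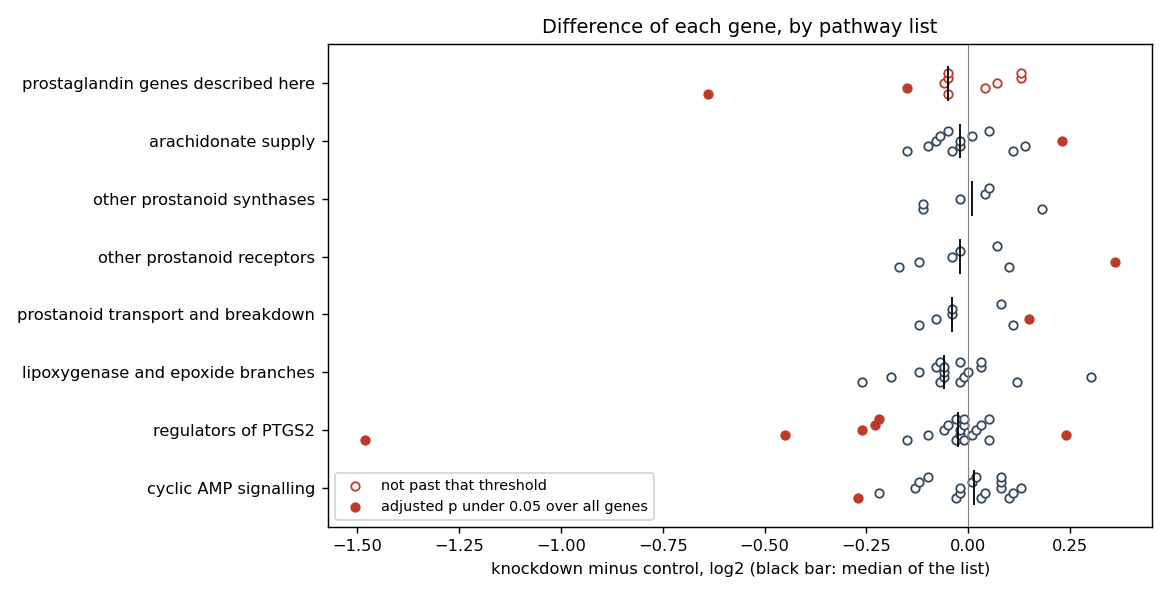
Knockdown minus control difference (x axis, log2) of each measured gene in the prostaglandin family and in 7 pathway lists (y axis), filled where it passed the fit over all genes, with the median of each list as a black bar. List medians lie between -0.06 and 0.01, and the lowest points are IL1B at -1.48 and PTGS2 at -0.64.

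Of 13 phospholipases and enzymes of arachidonate supply, 1 rose and 0 fell. The unadjusted counts at p under 0.05 were 2 higher and 1 lower. MBOAT7, which puts arachidonate into phosphatidylinositol, rose by 0.23 (SE 0.05, adjusted p = 0.0216), but did not pass when knockdown array 1, knockdown array 3 or control array 2 was removed (adjusted p up to 0.0749). Its 3 probe sets ran from 0.04 to 0.36, the most variable being the one at 0.36. PLA2G4A, the cytosolic phospholipase A2 that releases arachidonate, was named after its value was seen and did not pass. It was at -0.07, -0.15 and -0.04 in knockdown arrays, against 0.09, 0.04 and 0.04 in control arrays (difference -0.15, adjusted p = 0.0726). LPCAT3, of the same list and also named afterwards, differed the other way, at 0.14, and did not pass either (limma adjusted p = 0.0802).

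Among 6 other prostanoid synthases 0 passed (limma; 1 higher and 0 lower at an unadjusted p under 0.05). The 2 with the largest differences were AKR1C3, a prostaglandin F synthase, at 0.18 (adjusted p = 0.143), and PRXL2B, a prostamide and prostaglandin F synthase, at -0.11 (adjusted p = 0.241). Of 7 other prostanoid receptors and associated genes 1 rose and 0 fell (1 higher and 1 lower at an unadjusted p under 0.05). PTGFRN, a membrane protein that binds the prostaglandin F receptor and negatively regulates it, was at 0.22, 0.13 and 0.15 in knockdown arrays, against -0.26, -0.19 and -0.12 in control arrays. It rose by 0.36 (SE 0.05, adjusted p = 0.00417), with probe sets at 0.29 and 0.43. The call was kept under each of the 12 alternatives that refit averaged or selected probe sets.

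Of 7 genes for prostanoid transport and breakdown 1 rose and 0 fell (2 higher and 1 lower at an unadjusted p under 0.05). SLCO3A1, an organic anion transporter that can carry prostaglandins, rose by 0.15 (SE 0.04, adjusted p = 0.0472). Removal of any single array ended this call (adjusted p 0.0609 to 0.144), as did the replicate block (adjusted p = 0.102). Without _s_at and _x_at probe sets SLCO3A1 was at 0.11 and did not pass (adjusted p = 0.186). Its 4 probe sets ran from 0.04 to 0.28, the most variable being the one at 0.28. The lipoxygenase, leukotriene and epoxide branches, which use the same arachidonate, had 0 of 17 genes past the fit (limma; 1 higher and 2 lower at an unadjusted p under 0.05). EPHX1, an epoxide hydrolase, was at 0.30 (adjusted p = 0.0603) and ALOX12B, a lipoxygenase of the skin, at -0.26 (adjusted p = 0.155).

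Downstream of EP2 and EP4, 0 of 18 genes of cyclic AMP signalling and response rose and 1 fell (limma; 2 higher and 3 lower at an unadjusted p under 0.05). PRKAR1A, a regulatory subunit of protein kinase A, was at -0.15, -0.17 and -0.11 in knockdown arrays, against 0.13, 0.10 and 0.15 in control arrays. It fell by 0.27 (SE 0.04, adjusted p = 0.00474), with its 3 probe sets between -0.37 and -0.20. Markers of other cell types that make or use prostaglandins were also read. Of 9 leukocyte markers 1 rose, KIT at 0.25, and 1 fell, LYZ at -0.19, and of 5 endothelial markers 0 passed (limma; 0 higher and 1 lower at an unadjusted p under 0.05), PECAM1 being at -0.21 and VWF at -0.05. Since the table holds no levels, whether these markers were expressed at all could not be seen, and their part in any result was not tested. KIT did not pass when knockdown array 2 or 3, or control array 1 or 3, was removed. Its 3 probe sets ran from 0.03 to 0.50, the most variable being the one at 0.50. LYZ did not pass when any array other than knockdown array 1 was removed, with the replicate block (adjusted p = 0.0628) or on its most variable probe set (adjusted p = 0.0753), and it was at -0.11 without _s_at and _x_at probe sets (adjusted p = 0.259).

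The genes whose values over the 6 arrays were nearest to those of PTGS2 were PPP2R2D, TPGS2, CCND1, PBK and CXCL1, with root mean square differences of 0.0493 to 0.0680 on the log2 scale. PPP2R2D encodes a regulatory subunit of protein phosphatase 2A, TPGS2 a subunit of a tubulin polyglutamylase, CCND1 cyclin D1, PBK a mitotic kinase and CXCL1 a neutrophil-attracting chemokine. PPP2R2D was at -0.30, -0.35 and -0.22 in knockdown arrays, against 0.23, 0.22 and 0.32 in control arrays. In PPP2R2D, as in PTGS2, replicate 3 was the highest array of each group. That order did not hold in both groups for TPGS2, CCND1, PBK or CXCL1, and PPP2R2D was picked for its nearness to PTGS2. With 6 arrays the measure is governed by the group difference, which was -0.65 to -0.55 in these 5 genes and -0.64 in PTGS2.

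**Figure D4:**
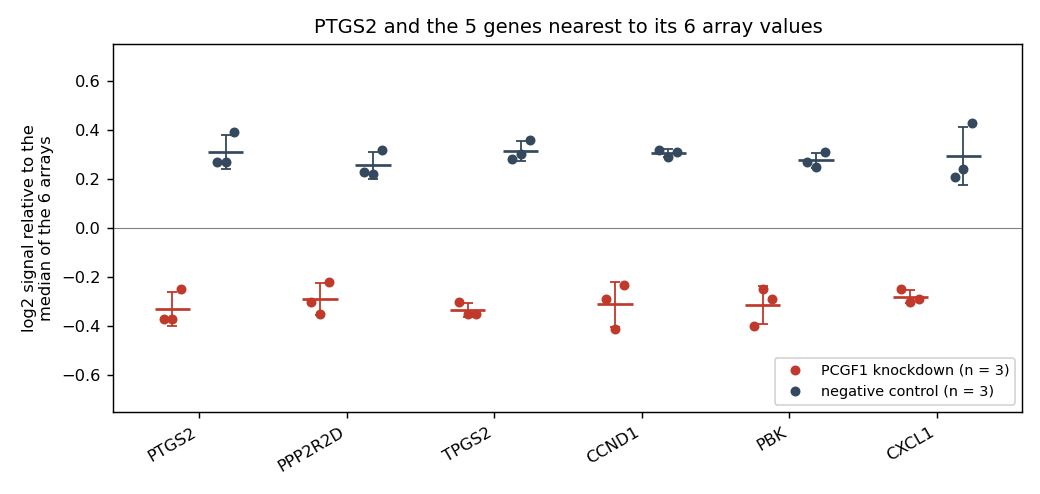
Log2 signal, with the 6-array median at 0 (y axis), for PTGS2 and the 5 genes nearest to it, for PCGF1 knockdown (red) and negative control (grey-blue) arrays, with means and SD of 3 arrays. All 6 genes have every knockdown array below every control array.

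**Figure D5:**
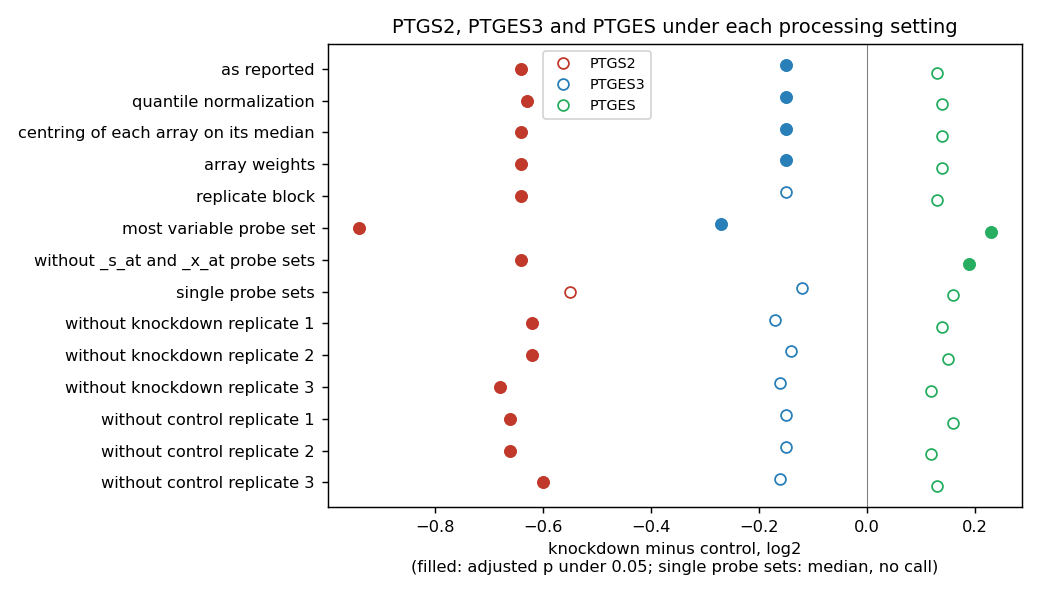
Knockdown minus control difference (x axis, log2) of PTGS2, PTGES3 and PTGES under each processing setting (y axis), filled where the gene passed the fit over all genes. PTGS2 stays between -0.94 and -0.55, PTGES3 between -0.27 and -0.12, and PTGES between 0.12 and 0.23. PTGES3 has no value without _s_at and _x_at probe sets.

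The plot of settings shows the 3 members apart from one another under every choice that gave a value for all 3. PTGS2 passed in each of the 12 alternatives that give a call per gene. PTGES3 passed in 4 of 11, and PTGES in 2 of 12. Each of these counts includes the fit on the most variable probe set, a choice that favours large differences. The settings refit the same arrays, and the lower PTGS2 was known beforehand, so the counts are a description and no independent support.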

How the data were processed

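Biotin-labelled cRNA from U87 cells was hybridised to 6 Affymetrix arrays, 3 per group, grouped by the sample titles. The labels call the arrays biological replicates and name no separate cultures. A p-value therefore reflects only how these samples vary, and part of that may be technical. The deposited values are log2 signals that the authors made with RMA, per the submitters' processing notes (no version given, and log2 is taken from RMA). They were further centred, as the values show, so that the median of each probe set's 6 arrays is 0 (largest departure 4.85e-07), a step that no source describes. Of 49395 probe sets 102 controls were left out. Of the 49293 others, 44988 had 1 gene symbol, 1832 several and 2473 none.

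Probe sets were averaged per gene and fitted with limma 3.58.1 in R 4.3.3 (lmFit, eBayes, two-sided, no covariates), with Benjamini-Hochberg adjustment over all 18132 genes or all probe sets. The script was tested on simulated data. The members, lists and rules were chosen with earlier results of these data known. The rule for names takes all members, PCGF1, up to 3 risen and 3 fallen genes per list by size, or the 2 with the largest difference where 0 passed, and the 5 genes nearest to PTGS2. Some genes outside it were named after their values were seen, as the text says. PLA2G4A and LPCAT3 were likewise named outside it. Of 97 list entries 90 genes were analysed here. Deviations from the group means of same-numbered arrays in the 2 groups had correlations of -0.0420, -0.0511 and 0.0116. Whether such arrays shared a culture or a batch is not stated and cannot be told from these values. A planned filter on dim probe sets could not be applied to centred values.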

Additional observations from a re-analysis of the deposited data

How the results depend on the processing

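The number of arrays limits the precision, and signal over background is unknown. PTGS2, PTGES, PTGES2, PTGES3, PTGER2 and PTGER3 kept their direction under every alternative that gave a value (13 each, and 12 for PTGES3, which has no probe set outside the _s_at and _x_at classes). PTGS1 reached 0.15 on its most variable probe set, PTGER4 ranged from -0.04 to 0.08, PTGIS from -0.12 to 0.06 and HPGD from -0.27 to 0.00. In a fit that adds a replicate block 1 member passed, PTGS2, in place of 2, and 1036 genes in place of 1994. Whether replicates of the same number were paired is not known, and the block uses up degrees of freedom. Leaving out 1 array at a time, 1 member passed each time, PTGS2, between 980 and 1402 genes passed, between 8 and 12 pathway genes passed in place of 10, the members' median difference lay between -0.07 and 0.00 and PCGF1 between -0.48 and -0.39. When each gene was represented by its most variable probe set, PTGS2 was at -0.94, PTGES at 0.23, PTGES3 at -0.27, HPGD at -0.27 and PTGER3 at -0.21, and 3 members passed. When probe sets were fitted singly, 3 member genes had a passing probe set. With quantile normalization, centring of each array and array weights 2 members passed, as in the reported fit. The planned filter on dim probe sets was not run.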
